A study of Mus musculus with 12 samples.

Results

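The genes described here encode the caspases, the Bcl2 family, the inhibitors of apoptosis and the adaptors that bring caspases together. They were chosen by gene symbol alone: every Casp gene with a number, every symbol that starts with Bcl2, the Birc genes with numbers 1 to 4, and 16 further genes of the same machinery (Bax, Bak1, Bok, Bid, Bad, Bik, Bmf, Hrk, Mcl1, Bbc3, Pmaip1, Xiap, Apaf1, Diablo, Cflar and Fadd). Of 42 such symbols in the mouse annotation, 40 had probes on the array, out of 17277 genes that could be named, and Bcl2l15 and Casp16 are not analysed here. These 40 genes were read by 126 probes, 3 for each transcript, with a second transcript for Bcl2 and for Cflar. RNA came from 3 mouse cell lines: AtT20, a neuroendocrine line from a pituitary tumour, BV2, a microglial line, and N18, a neuroblastoma line. All 3 were grown in the same serum-containing medium and no treatment is described, so that the array reads basal transcript levels. For BV2 alone, the paper adds that culture conditions were meant to favour a resting rather than an activated state. Each line was sampled as 4 plates of cells that were extracted and hybridised separately, 1 single-colour array per plate.

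In apoptosis, caspases cut cell proteins, and initiator caspases that are gathered on adaptors (Fadd at death receptors, Apaf1 at the apoptosome) switch on the executioner caspases. Bcl2 proteins set the mitochondrial step: Bax, Bak1 and Bok can open the outer membrane, Bcl2, Bcl2l1 (Bcl-xL), Mcl1 and the A1 proteins hold them back, and BH3-only proteins such as Bid, Hrk, Bbc3 (Puma) and Pmaip1 (Noxa) relieve that block. Inhibitors of apoptosis such as Birc2, Birc3 and Xiap act on caspases or on death-receptor signalling, whereas Casp1 and Casp4 belong to inflammation and pyroptosis, a lytic form of cell death that macrophages and microglia are known for.

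The sequences shown first lie upstream of the 4 A1 genes and Casp4, a part of the genes that stood apart between BV2 and N18 in the results that follow. Each of those shown holds a marked motif. Other genes that stood apart, such as Casp1, Bax, Birc3, Hrk and Bok, are not shown, nor are Bak1 and Bcl2l1, which held a motif too. Mouse has several copies of the A1 gene, and 4 of them (Bcl2a1a, Bcl2a1b, Bcl2a1c and Bcl2a1d) were measured. The stretches below are 108 bases of RefSeq sequence (GRCm38.p6), all on chromosome 9, at chr9:88956791-88956898 on the plus strand, chr9:89199100-89199207 on the plus strand, chr9:114329896-114330003 on the plus strand and chr9:88731872-88731979 on the minus strand. Each lies upstream of the annotated start, and the capitals mark the letters GAGGAAGT, an ETS-type motif of the kind that the myeloid factor PU.1 binds.
Bcl2a1a: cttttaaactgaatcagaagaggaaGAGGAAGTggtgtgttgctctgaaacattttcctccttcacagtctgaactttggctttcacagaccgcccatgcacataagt
Bcl2a1b: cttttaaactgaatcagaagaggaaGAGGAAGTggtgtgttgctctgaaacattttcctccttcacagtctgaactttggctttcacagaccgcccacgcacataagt
Bcl2a1c: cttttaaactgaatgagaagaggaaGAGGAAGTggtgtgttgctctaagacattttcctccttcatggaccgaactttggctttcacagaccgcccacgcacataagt
Bcl2a1d: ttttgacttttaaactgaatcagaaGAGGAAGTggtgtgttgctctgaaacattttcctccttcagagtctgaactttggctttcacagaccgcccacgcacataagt
Aligned on the motif without gaps, the 4 stretches were identical at 83.3% to 99.1% of their bases, so that they are copies and not 4 separate cases. In the 250 bases before the start, GAGGAAGT was found on either strand in 6 of the 35 measured genes with a promoter in the table (the 4 A1 genes, Bad and Bak1) and in 2.44% of 32851 promoter windows. A gene was counted if any of its windows held the motif, and the 35 genes had 48 windows. The count of genes and the share of windows are therefore unlike measures. Casp4 is shown because its 250 bases before the start (chr9:5308599-5308848, plus strand) held 3 matches to the kappaB consensus on the 2 strands, the first pair of them overlapping, which the capitals mark.
Casp4: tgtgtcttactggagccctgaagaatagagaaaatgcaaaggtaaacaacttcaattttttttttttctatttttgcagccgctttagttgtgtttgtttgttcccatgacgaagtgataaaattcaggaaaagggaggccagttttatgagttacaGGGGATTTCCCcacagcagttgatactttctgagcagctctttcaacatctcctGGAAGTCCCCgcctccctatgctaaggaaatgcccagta
The kappaB consensus was present in 3 of the 35 genes (Bbc3, Bcl2l1 and Casp4), again counted over any window of a gene, and in 7.25% of all windows. Both motifs were chosen after the values were seen, and a match is only a description of letters, not of a bound site.

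The plates labelled AtT20 stood apart from the other 8. Their values were spread over a narrow range, with an interquartile range of 0.38 to 0.78 on the log2 scale compared with 1.28 to 1.73 in BV2 and 1.91 to 2.21 in N18, and none of 5 corticotroph markers was above the detection threshold, compared with 2 each in BV2 and N18. Of these 5, Pcsk1 and Neurod1 read higher there than in both other lines under all 3 scalings while below the threshold in every line. Above it there were 4 of 8 neuroblastoma markers, as many as in BV2, and 5 of 5 genes of all cells. They are therefore called the plates labelled AtT20, and the comparison of N18 with BV2 is given first. In BV2, 5 of 6 microglia markers were above the threshold (Aif1 was not), and in N18, 8 of 8 neuroblastoma markers were. Which slide held which plate is not known, so that slide and line cannot be told apart, and the number of arrays limits the precision of every value.

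Detection followed the study's rule. The level of a gene is its log2 intensity minus the mean of 10 seminal proteins, which none of the lines should make, and a line was called positive where its mean level passed 2 SD of those proteins (a threshold of 0.56 ± 0.15 for BV2, 0.74 ± 0.10 for N18 and 0.37 ± 0.11 for the AtT20 label, SD, n = 4). BV2 held 32 of the 40 genes above its threshold, or 80.0% compared with 53.3% of all genes and unnamed targets. N18 held 26, or 65.0% compared with 55.4% of all. On the plates labelled AtT20 the count was 11, or 27.5% compared with 35.0% of all, and 7 of these 11 genes rested on 1 probe. A threshold set on olfactory receptor genes gave lower counts, 22 in BV2 and 21 in N18. Of all 25128 features, 7864 in BV2 and 9524 in N18 were above that threshold. With at least 2 probes required, the count was 29 in BV2, 24 in N18 and 4 for the AtT20 label (Bax, Bak1, Bad and Hrk). All features were not counted under that rule, so that these counts describe the 40 genes only.

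Genes differed in which lines held them above the threshold. The share of all features with each combination of lines was not counted, so that the counts describe these genes only. Above the threshold in BV2 alone were 8 genes, namely Casp1, Casp4, Bcl2a1a, Bcl2a1b, Bcl2a1c, Pmaip1, Birc3 and Cflar. For Birc3 2 of 3 N18 probes were themselves above the N18 threshold, and for Cflar 3 of 6 were, those of 1 transcript, so that Cflar was below it in N18 only as the average of its transcripts and was above it there by its brighter transcript. Bik was above it under the AtT20 label alone, and Bok under that label and in N18. Another 15 genes were above the threshold in BV2 and N18, among them the initiators Casp2 and Casp8, and Bcl2, Bcl2l1, Mcl1, Bid, Apaf1 and Fadd. All 3 lines passed for 9 genes (Casp9, Casp14, Bax, Bak1, Bad, Hrk, Bbc3, Bcl2l14 and Diablo). No line passed for Casp6, Casp12, Bcl2l10, Bmf and Xiap. A level below the threshold does not show that a transcript is absent. In the paper, qPCR found mRNA of a few genes that were not significant on the arrays. Under the AtT20 label, Casp9 and Bok rested on 1 probe and were above the threshold on 1 of 4 plates, and Bad on 3. Bbc3 and Bcl2l14 rested on 1 probe in all 3 lines, and Diablo on 1 in BV2 and under the AtT20 label.

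**Figure D1:**
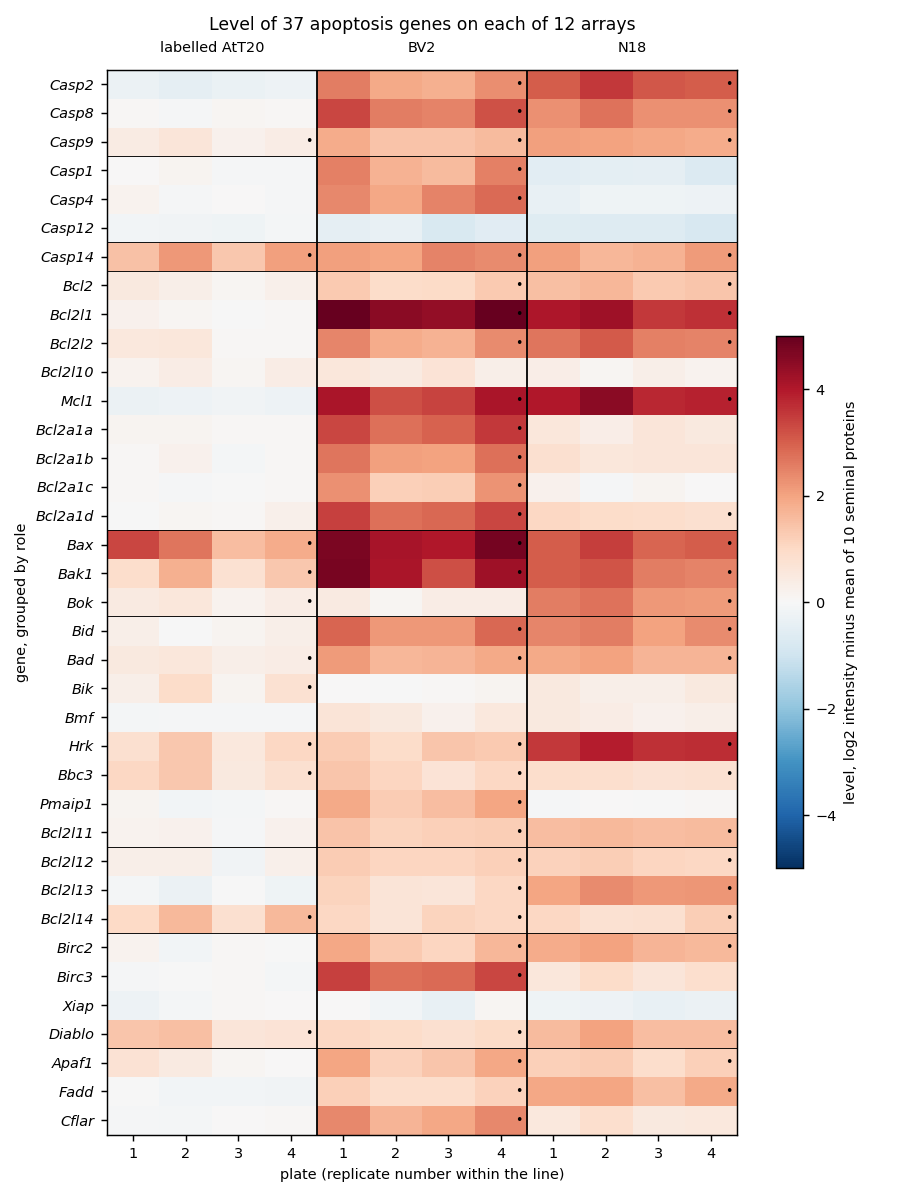
Colour gives the level (log2 intensity over the seminal protein mean) of 37 of the 40 genes, in rows by role, on 12 plates, in columns by line. A dot at the right edge of a line's 4 columns marks a gene above that line's threshold (31 for BV2, 24 for N18 and 11 for the AtT20 label).

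For the comparisons between lines the 12 arrays were quantile-normalized, and a gene passed the test at an adjusted p under 0.05 in limma over all 25128 genes and unnamed targets. N18 differed from BV2 in 26 of the 40 genes, or 65.0% compared with 40.9% of all. Lower in N18 were 20 (21.9% of all features were) and higher 6 (19.0% of all were). The median log2 difference, N18 minus BV2, was −0.33 over the 40 genes and −0.06 over all features. The split depends on the scale: without normalization 9 genes were higher and 14 lower, and relative to the seminal proteins 14 were higher and 14 lower, while the median of all features moved to 0.15 and 0.18. Of all 25128 features, 7714 were higher and 1905 lower without normalization, and 9754 and 3296 relative to the seminal proteins. Under all 3 scales 19 genes passed (25.9% of all features did), 13 as lower in N18 (7.16% of all features did) and 6 as higher (18.7% of all did). The 13 were Casp1, Casp4, Bcl2l1, the 4 A1 genes, Bax, Bak1, Pmaip1, Birc3, Cflar and Apaf1, and the 6 included Casp2, Bok, Hrk and Bcl2l13. A log2 difference of at least 1 was reached by 16 genes (9.83% of all features), 13 lower genes (4.35% of all) and 3 higher genes (5.48% of all). This adds Casp8 to the lower genes and leaves out Apaf1, and Bok and Hrk were among the higher ones. In bulk RNA, fewer cells that hold a transcript and less of it per cell cannot be told apart.

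**Figure D2:**
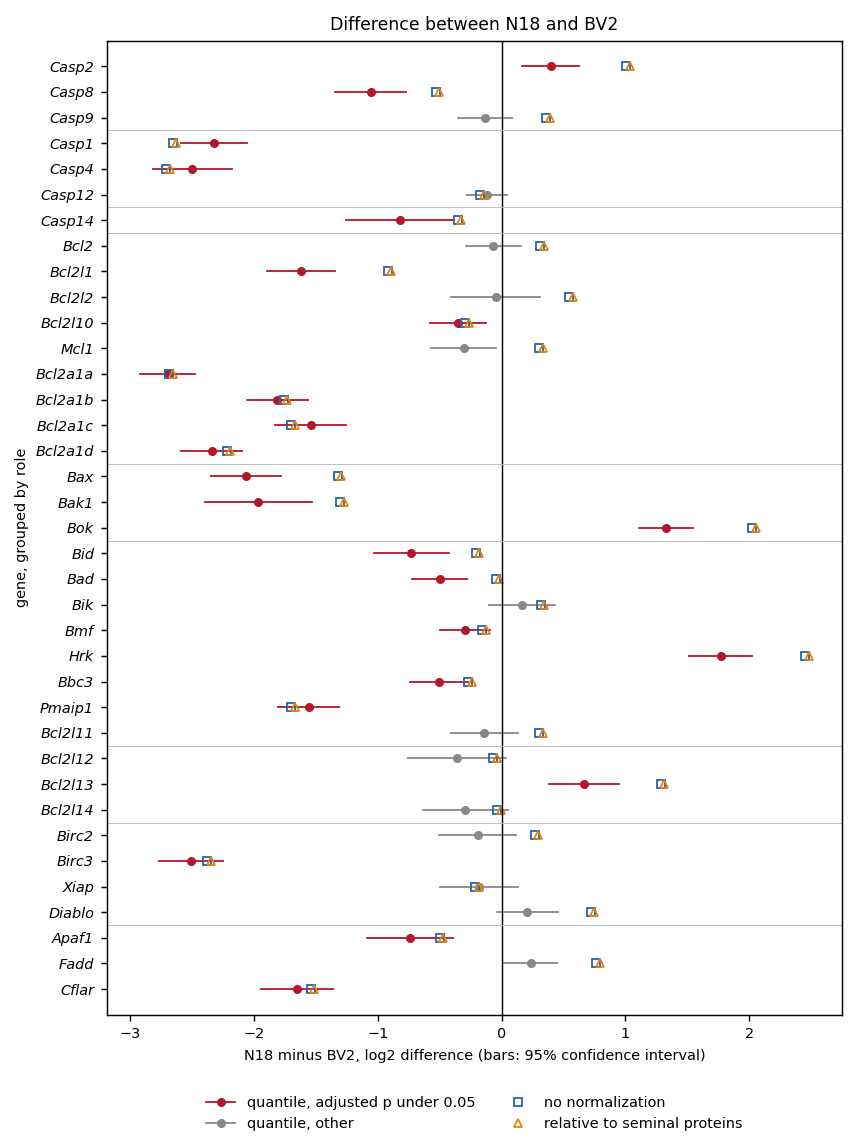
Points give the log2 difference, N18 minus BV2, of 37 of the 40 genes after quantile normalization, with bars for the 95% confidence interval and red for an adjusted p under 0.05 (24 of these genes). Open squares (no normalization) and triangles (relative to the seminal proteins) lie to the right of the points for most genes, while Casp1 and Casp4 keep their place far to the left and Hrk and Bok to the right.

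Casp1 and Casp4, of the 3 inflammatory caspases, were among the genes with the largest differences. Casp1, which cuts the precursors of interleukin-1 beta and interleukin-18, read 12.01, 11.85, 11.57 and 12.10 (log2 intensity) on the 4 BV2 plates and 9.63, 9.53, 9.60 and 9.49 on the N18 plates. Casp4, the sensor of intracellular lipopolysaccharide, read 11.93, 12.05, 12.56 and 12.43 in BV2 and 9.70, 9.74, 9.76 and 9.78 in N18. Every BV2 plate lay more than a log2 unit above every N18 plate for both genes. The differences were −2.32 for Casp1 (95% confidence interval −2.58 to −2.05, adjusted p = 2.15e-10) and −2.50 for Casp4 (−2.82 to −2.18, adjusted p = 9.47e-10). Since N18 was below its threshold, the fold is a bound, and BV2 was at least 2.5-fold higher for Casp1 and at least 3.1-fold for Casp4. Not all probes showed it to the same degree: for Casp1, the probe numbered 115 read 9.92 in BV2, and the others read 12.77 and 11.71. Casp12, which lies beside Casp1 and Casp4 on chromosome 9, read 9.56 ± 0.06 (SD, n = 4) in BV2 and 9.45 ± 0.07 in N18 and was above the threshold in neither line.

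The 4 A1 genes, short-lived relatives of Bcl2 that are known from blood cells, moved the same way. Bcl2a1a read 12.84, 12.93, 13.04 and 13.12 in BV2 and 10.32, 10.15, 10.40 and 10.28 in N18. Bcl2a1d read 12.92, 12.90, 12.89 and 12.92 in BV2 and 10.62, 10.53, 10.61 and 10.51 in N18. The ranges of the lines did not meet for any of the 4. Log2 differences were −2.70 for Bcl2a1a (adjusted p = 3.40e-12), −2.34 for Bcl2a1d (7.73e-11), −1.81 for Bcl2a1b (1.79e-09) and −1.54 for Bcl2a1c (9.70e-08). BV2 was at least 5.3-fold higher for Bcl2a1a, 3.1-fold for Bcl2a1b and 1.9-fold for Bcl2a1c, whose N18 level was below the threshold. Bcl2a1d alone of the 4 was above the threshold in N18, at a level of 0.91 ± 0.09 (SD, n = 4) over the seminal proteins. Because these genes are near copies of one another, their probes may read each other's transcripts: Bcl2a1a and Bcl2a1d have probes at the same positions, 221 and 609, of their transcripts, and the 4 values are not independent.

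Birc3 and Cflar, both known as targets of NF-kappaB and as brakes on death-receptor signalling, were also high in BV2. Birc3 (cIAP2) read 12.93, 12.91, 12.92 and 12.92 on the BV2 plates and 10.28, 10.52, 10.37 and 10.48 in N18. The difference was −2.51 (95% confidence interval −2.76 to −2.25, adjusted p = 5.17e-11), at least 5.0-fold, and it was largest at probes 1 and 2 of its transcript, at 12.59 and 13.93 in BV2 and 10.48 and 10.86 in N18, while probe 3 read 10.47 in BV2 and 9.63 in N18. Birc2 (cIAP1), its neighbour on the chromosome, read 11.35 ± 0.21 in BV2 and 11.16 ± 0.07 in N18, a log2 difference of −0.19 that did not pass the test (95% confidence interval −0.50 to 0.11). Xiap, the direct caspase inhibitor, was below the threshold in every line.

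Cflar encodes c-FLIP, the decoy of Casp8 at death receptors, and its average over 2 transcripts read 12.09, 11.80, 11.98 and 12.14 in BV2 and 10.31, 10.48, 10.31 and 10.31 in N18. The groups did not overlap, and the log2 difference was −1.65 (adjusted p = 4.66e-08). The transcripts gave different pictures. The probes of transcript NM_207653 read 13.77, 13.66, 13.69 and 13.86 in BV2 and 10.76, 10.91, 10.75 and 10.71 in N18, a difference of −2.96 ± 0.14 (SE, adjusted p = 4.70e-11). Those of transcript NM_009805 read 10.40, 9.94, 10.28 and 10.43 in BV2 and 9.86, 10.05, 9.86 and 9.91 in N18, a difference of −0.34 ± 0.14 that did not pass the test (adjusted p = 0.0628). The average over the gene therefore understates the signal of the brighter probes, and probes of different transcripts differ in sensitivity, so that their levels are not set against each other. For Bcl2, the other gene with 2 transcripts, neither differed between the lines past the test.

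**Figure D3:**
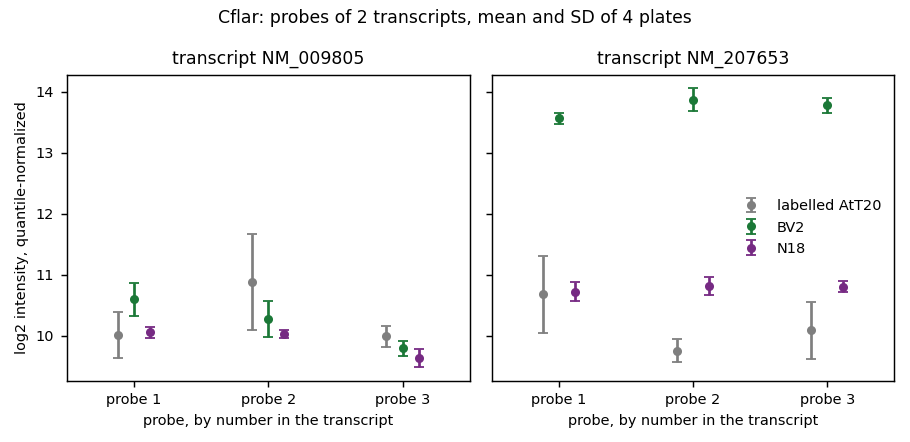
The plot gives quantile-normalized log2 intensity (mean and SD of 4 plates per line) of the 3 probes of each of 2 Cflar transcripts. All 3 probes of NM_207653 are high in BV2 (transcript mean 13.74 ± 0.09) and low in N18 (10.78 ± 0.09), whereas those of NM_009805 are low in every line (means 9.92 to 10.43).

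Of the other proteins that hold back Bax and Bak1, only Bcl2l1 differed between the lines under all 3 scales. Bcl2l1 read 14.78, 14.77, 14.65 and 14.69 in BV2 and 13.36, 13.23, 12.86 and 12.96 in N18, with no overlap. The difference was −1.62 on the log2 scale (95% confidence interval −1.90 to −1.34, adjusted p = 3.22e-08), and −0.92 without normalization. Its probe 3 read 10.48 in BV2 and 10.54 in N18, so that the gene's value came from the other 2 probes. Mcl1, a short-lived protein that many cells need to survive, read 13.59 ± 0.12 in BV2 and 13.28 ± 0.18 in N18 (SD, n = 4), and the difference of −0.31 did not pass the test (adjusted p = 0.0612) and turned to 0.30 without normalization. For Bcl2 the difference was −0.07 (95% confidence interval −0.29 to 0.16) and for Bcl2l2 (Bcl-w) −0.05 (−0.41 to 0.31). On other scales Bcl2l2 passed as higher in N18, by 0.55 without normalization (adjusted p = 0.0386) and 0.58 relative to the seminal proteins (0.0289), and Bcl2 did on the latter (0.34, 0.0469). Without N18 plate 2 the difference of Mcl1 was −0.39 and passed. Bcl2l10 passed the test at −0.35 but was above the threshold in neither line, and without BV2 plate 3 it did not pass (−0.29).

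The 3 pore-forming members went in different directions. Bax read 14.30, 14.35, 14.18 and 14.39 in BV2 and 12.19, 12.34, 12.21 and 12.23 in N18. Bak1 read 14.33, 14.33, 13.29 and 13.80 in BV2, the widest spread of a BV2 group among the 40 genes, and 12.17, 12.07, 11.90 and 11.74 in N18. Bok, which can act without Bax and Bak1, read 10.33, 10.17, 10.41 and 10.30 in BV2 and 11.76, 11.73, 11.56 and 11.46 in N18. No plate of one line reached the range of the other for any of the 3. The log2 differences were −2.06 for Bax (adjusted p = 2.06e-09), −1.96 for Bak1 (6.81e-07) and 1.33 for Bok (2.02e-08), and without normalization they were −1.32, −1.31 and 2.02. Bok was below the threshold in BV2, so that N18 was at least 2.1-fold higher.

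Among the BH3-only genes, Hrk was higher in N18 and Pmaip1 higher in BV2. Hrk (harakiri), first known from neurons deprived of trophic factor, read 10.99, 11.03, 11.35 and 11.08 in BV2 and 12.73, 12.83, 13.03 and 12.94 in N18. Pmaip1, a p53 target that neutralises Mcl1, read 11.48, 11.40, 11.53 and 11.64 in BV2 and 9.92, 9.96, 9.95 and 10.00 in N18. Neither gene's groups overlapped. The difference of Hrk was 1.77 (95% confidence interval 1.52 to 2.02, adjusted p = 3.32e-09), and it was the highest of the 40 on each of the 3 scales. That of Pmaip1 was −1.56 (−1.80 to −1.31, adjusted p = 1.34e-08), at least 1.9-fold, since N18 was below the threshold. Bid, which Casp8 cuts to link death receptors to mitochondria, was lower in N18 by a log2 difference of −0.73 (adjusted p = 0.000607), and Bad (−0.50) and Bbc3 (−0.50) passed too, but none of these 3 passed without normalization or relative to the seminal proteins. Bcl2l11 (Bim) read 11.13 ± 0.09 in BV2 and 10.99 ± 0.06 in N18, a difference of −0.14 (95% confidence interval −0.41 to 0.14). Bmf passed the test at −0.30 but, like Bik, was above the threshold in neither line, and without any 1 of BV2 plate 2, N18 plate 2 or N18 plate 3 it did not pass (differences of −0.26, −0.27 and −0.27).

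**Figure D4:**
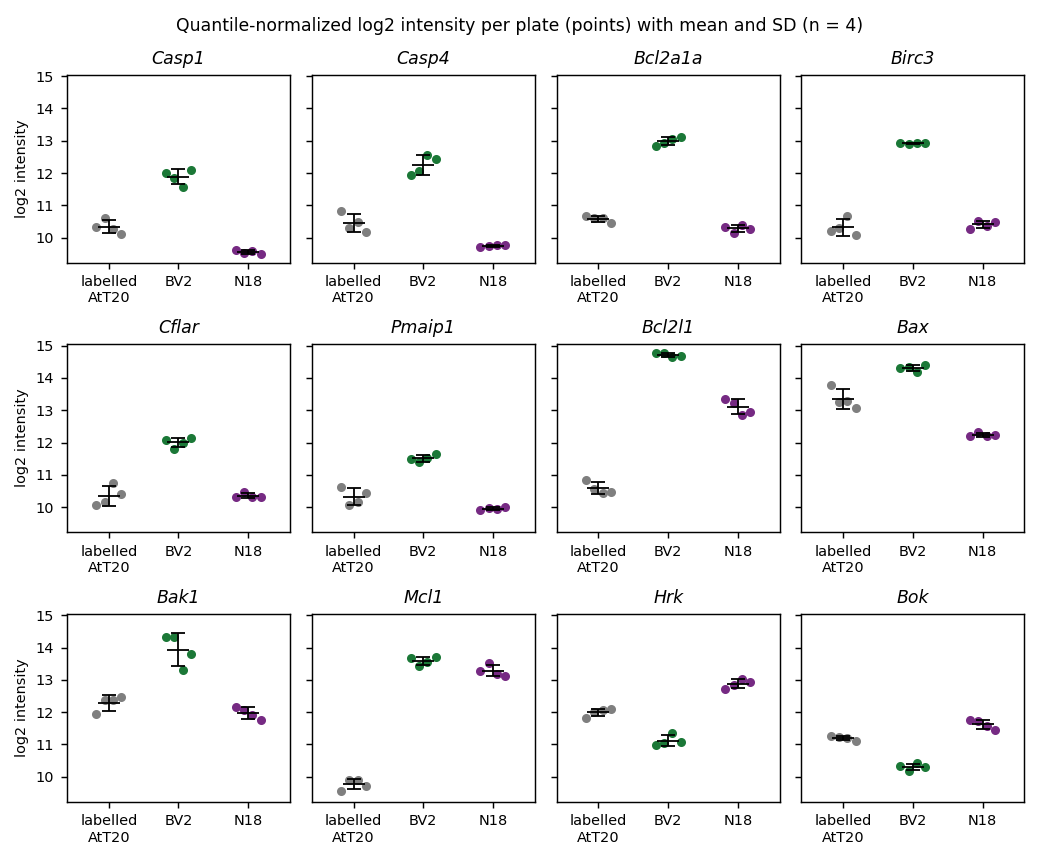
Each panel gives the quantile-normalized log2 intensity of 1 gene, with a point per plate and the mean and SD of the 4 plates of each line. In the 7 panels from Casp1 to Bcl2l1, the BV2 plates lie above the other 8, Bax and Bak1 are highest in BV2 too, and in the panels of Hrk and Bok the N18 plates lie highest.

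Initiator caspases differed less than the inflammatory ones that were detected. Casp8, the initiator at death receptors, read 12.81, 12.67, 12.47 and 12.76 in BV2 and 11.53, 11.72, 11.65 and 11.58 in N18, a log2 difference of −1.06 (adjusted p = 8.16e-06) that was −0.53 without normalization and −0.50 relative to the seminal proteins, where it did not pass (adjusted p = 0.055). Casp2, an initiator tied to DNA damage, was higher in N18 by 0.40 (12.34 ± 0.12 compared with 11.94 ± 0.14, adjusted p = 0.00766), by 1.01 without normalization and by 1.04 relative to the seminal proteins, but with the median of the probes the difference was 0.25 and did not pass (adjusted p = 0.222). For Casp9, which Apaf1 recruits, the difference was −0.13 (95% confidence interval −0.35 to 0.08), and it turned to 0.36 without normalization. Apaf1 itself was lower in N18 by a log2 difference of −0.74 (10.70 ± 0.07 compared with 11.44 ± 0.15, adjusted p = 0.00159), with plates of 10.60 to 10.75 in N18 and 11.28 to 11.60 in BV2. Fadd and Diablo (Smac), the mitochondrial antagonist of the inhibitors, differed by 0.24 and 0.21 and did not pass after quantile normalization, but passed without it at 0.77 and 0.72.

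Casp6, an executioner caspase, was above the threshold in neither line. Its difference of 0.24 did not pass the test, and without BV2 plate 4 it was 0.29 and passed. Casp14, a caspase of the skin's outer layer, and the less known Bcl2 relatives gave values that rest on few probes. Casp14 read 12.07 ± 0.39 in BV2 and 11.25 ± 0.21 in N18, a log2 difference of −0.82 (adjusted p = 0.00421) that came from 1 probe (13.09 in BV2 and 11.73 in N18) and turned to 0.02 with the median of the probes. Bcl2l13, a mitochondrial member with a part in mitophagy, was higher in N18 by 0.67 (11.45 ± 0.12 compared with 10.78 ± 0.12, adjusted p = 0.000731), and by 1.28 and 1.31 on the other scales. Bcl2l12 and Bcl2l14 did not pass the test, with differences of −0.36 and −0.29.

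Other genes of cell death and of inflammasomes were read from lists of gene names. Their counts are to be read beside the 21.9% of all features that were lower in N18 and the 19.0% that were higher, or 7.16% and 18.7% under all 3 scales. Of 14 measured death receptors, ligands and adaptors, 7 were lower and 2 higher in N18, and 4 and 2 under all 3 scales. The 2 higher ones were Tnfrsf1a (0.61) and Dedd (0.78), both above the threshold in BV2 and in N18. Fas, the death receptor, differed by −1.70, the cytokine Tnf by −1.60, and Ripk3, the kinase of necroptosis, by −1.02 on the log2 scale. All 3 were below the threshold in N18, so that BV2 was at least 1.8-fold higher for Fas, 2.2-fold for Tnf and 1.3-fold for Ripk3. Of 16 inflammasome genes 8 were lower and 1 higher, and 6 and 1 under all 3 scales, led by Il1a (−2.68), Il1b (−2.28), Nlrp3 (−2.12) and Il18 (−1.51). Il1b and Il18, whose products Casp1 cuts, were above the threshold in BV2, at levels of 2.33 ± 0.36 and 1.59 ± 0.36 over the seminal proteins, and below it in N18, as Casp1 and Il1a were, which bounds the folds at 3.0 or more for Il1b, 1.8 or more for Il18 and 4.7 or more for Il1a. Gsdmd, the pore protein that Casp1 and Casp4 cut in pyroptosis, was above the threshold in both lines, at 2.05 ± 0.30 in BV2 and 1.75 ± 0.25 in N18. On the quantile scale it was lower in N18 by a log2 difference of −0.75 (adjusted p = 0.00104), but not under all 3 scales. Pycard, the adaptor that joins Nlrp3 to Casp1, was below the threshold in every line.

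Of 14 mitochondrial death factors 5 were higher and 5 lower in N18, and 5 and 1 under all 3 scales. Slc25a4, an adenine nucleotide carrier, was higher by 1.85 and the channel Vdac1 by 1.48, whereas Aifm1 (AIF) was lower (−1.59) and so was Slc25a5 (−1.15), the latter on the quantile scale but not under all 3. Cycs, the cytochrome c gene, was below the threshold in all 3 lines, which does not show that its transcript was absent. Among 12 caspase substrates and nucleases, 2 were higher (Xkr8, a phospholipid scramblase, at 0.93, and Dffa at 0.44) and 3 lower, though none of the lower ones was lower under all 3 scales, and 5 of 12 is close to the 40.9% of all features that passed. Birc5 (survivin), a Birc protein of dividing cells outside the numbers chosen, was higher in N18 by 0.93, and Birc6 did not differ past the test (−0.03). Of 12 p53 and stress genes, 9 did not pass, Trp53 itself among them (0.08), and Mdm2 was lower by a log2 difference of −1.11, though not under all 3 scales.

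Against the plates labelled AtT20, most features of the array passed the test, 73.6% for BV2 and 76.4% for N18, and the 40 genes are to be read against that. BV2 differed in 36 of the 40 genes, 25 higher (26.6% of all features were) and 11 lower (47.0% of all were), with a median difference of 0.73 compared with −0.23 for all features. Without normalization 14 were higher and 14 lower, and relative to the seminal proteins 29 were higher and 3 lower, with all-feature medians of −1.08 and 0.28. Of all 25128 features, 2940 were higher and 18762 lower without normalization, and 12668 and 4413 relative to the seminal proteins. Under all 3 scales 17 genes passed (28.9% of all), 14 as higher in BV2 (11.7% of all) and 3 as lower (17.2% of all), and a log2 difference of at least 1 was reached by 18 genes (28.3% of all), 15 of them higher (12.5% of all) and 3 lower (15.7% of all). N18 differed in 29 genes, 14 higher (27.8% of all were) and 15 lower (48.6% of all were), with a median of −0.06 compared with −0.25. On the other scales the split was 12 and 22 without normalization and 28 and 3 relative to the seminal proteins. For all 25128 features it was 5012 and 15846 without normalization, and 15255 and 4094 relative to the seminal proteins. Under all 3 scales 15 genes passed (34.7% of all), 12 as higher in N18 (18.7% of all) and 3 as lower (16.0% of all), and 12 genes reached a log2 difference of at least 1 (31.4% of all), 7 of them higher (13.2% of all) and 5 lower (18.2% of all). The same 3 lines enter each pair, so that the pairs share their plates.

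The survival genes Bcl2l1 and Mcl1 gave the largest of these differences for BV2, and Mcl1 and Casp2 for N18. Bcl2l1 read 10.85, 10.56, 10.45 and 10.47 on the plates labelled AtT20, Mcl1 9.56, 9.90, 9.90 and 9.72, and Casp2 9.54, 9.51, 9.53 and 9.72, each below every plate of BV2 and N18. Probe 3 of Bcl2l1 went the other way, at 11.27 under the AtT20 label, 10.48 in BV2 and 10.54 in N18. The differences of Bcl2l1 thus came from its other probes. For BV2 the log2 differences were 4.14 for Bcl2l1 (adjusted p = 1.94e-13, at least 8.2-fold), 3.82 for Mcl1 (2.88e-13, at least 3.9-fold), 2.61 for Birc3 (1.49e-11, at least 2.5-fold), 2.39 for Bcl2a1a (7.68e-12, at least 2.6-fold) and 2.37 for Casp2 (1.36e-11, at least 1.3-fold). For N18 they were 3.51 for Mcl1 (7.53e-13, at least 4.0-fold), 2.76 for Casp2 (2.25e-12, at least 2.0-fold), 2.52 for Bcl2l1 (5.05e-11, at least 3.5-fold) and −1.65 for Bcl2l14 (1.10e-07). Under the AtT20 label each of these genes except Bcl2l14 lay below the threshold, so that the folds are bounds. The seminal proteins themselves read higher there, at 10.29 to 10.49 compared with 9.93 to 10.09 on the other plates. Relative to these proteins the difference of Bcl2l14 shrank to −0.31 and did not pass (adjusted p = 0.124).

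Several genes that read high on the plates labelled AtT20 did so on 1 probe. Bik, above the threshold there alone, averaged 12.45 at 1 probe and 10.32 and 9.78 at the others, and was above the threshold on 2 of the 4 plates. In the same way Bcl2l14 had 1 probe at 13.53, Diablo 1 at 13.13 and Bbc3 1 at 13.09, with their other probes at 9.72 to 10.45. Bax read 13.79, 13.26, 13.30 and 13.08, between the N18 and BV2 plates, and its 3 probes were all above the threshold. Hrk read 11.82, 11.99, 12.06 and 12.09, between BV2 and N18, and was above the threshold on all 4 plates. These positions of Bax and Hrk are those on the quantile scale. Relative to the seminal proteins both genes were lowest under the AtT20 label. Bax stood there at 2.34 compared with 3.12 in N18, and Hrk at 0.92 compared with 1.22 in BV2. On that scale the difference passed the test for Bax (adjusted p = 0.0434) but not for Hrk (0.224).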

How the data were processed

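RNA of 12 plates (4 each of AtT20, BV2 and N18) was measured on single-colour NimbleGen mouse arrays. The authors deposited log2 values of the Cy3 intensities, 1 for each of 72000 probes, and no normalization between arrays is described or seen in them. Probes were averaged per target on the linear scale, and 69.4% of 25631 targets were named through RefSeq transcripts (GRCm38.p6, names only). Lines were compared in limma 3.58.1 (R 4.3.3; lmFit, then eBayes with trend, on all 12 arrays) after quantile normalization, with Benjamini-Hochberg adjustment over 25128 features. A bound on a fold is the smallest over 3 scales (quantile, no normalization, relative to the seminal proteins), taken from the dim line's threshold. With no record of slides, p-values measure only the spread between plates.

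The rule for the members uses gene symbols alone, but that rule, the lists and the tests were set with earlier results of these data known. Named genes are the members for N18 and BV2, the 5 with the largest differences against the plates labelled AtT20, and at most 4 of each other list by size; further ones were chosen after their values were seen. Values of a few members are not reported here, but the counts include them. The alternatives were the scaling, background correction, probe summary, target, filter, size, arrays fitted, replicate block and each plate left out. HEK293 cells and qPCR values are not analysed here.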

Additional observations from a re-analysis of the deposited data

Results flagged for a closer look

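In 8 of 120 groups of 4 plates (40 genes in 3 lines), 1 plate lay far from the other 3 by Dixon's test, where chance gives about 1 group in 20, or 6. Values are quantile-normalized log2 intensities. On the plates labelled AtT20, plate 4 was highest for Casp2 at 9.72, and plate 3 was lowest for Bcl2l11 at 10.18 and for Bcl2l12 at 9.87. In BV2, plate 3 was lowest for Bcl2l2 at 11.70, and plate 2 was highest for Bcl2l12 at 11.22 and for Diablo at 11.00. In N18, plate 1 was highest for Casp12 at 9.55 and plate 2 for Cflar at 10.48.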

How the results depend on the processing

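Of the 26 genes that passed between N18 and BV2, 15 kept their direction and passed under every alternative run, and 11 were lost under at least 1, of which Apaf1 and Bcl2l13 only where a log2 difference of at least 1 was required. Of the members above the threshold on the plates labelled AtT20, 11 became 7 with 3 SD, 7 with all 4 plates required and 7 with olfactory receptor controls. They became 4 with the median of probes and 4 with at least 2 probes, and leaving out 1 plate gave 9 to 13. The count of all features fell too. Of 25128, 8788 became 6854 with 3 SD, 6098 with all 4 plates, 5580 with olfactory receptor controls and 6175 with the median of probes. Leaving out 1 plate gave 8100 to 9297 features, and the rule of at least 2 probes was not counted for them. Olfactory receptor controls gave 22 in BV2 (32 with the seminal proteins) and 21 in N18 (26). The other settings gave 29 to 33 and 23 to 27. For all features, olfactory receptor controls gave 7864 in BV2 (13386 with the seminal proteins) and 9524 in N18 (13911). Other settings that were counted for all features gave 10671 to 14037 and 11368 to 14133. A log2 difference of at least 1 left 16 genes for N18 against BV2, 18 for BV2 and 12 for N18 against the plates labelled AtT20, and all 3 scalings together left 17 and 15 of the latter pairs. Leaving out 1 plate gave 25 to 27, 33 to 38 and 27 to 30 genes. Of all features, 8758 to 9438, 17534 to 19044 and 18339 to 19670 then passed. For N18 minus BV2, signs turned without normalization, relative to the seminal proteins, or with the median of probes: Bcl2 (0.31, 0.34 and 0.0039), Bcl2l2 (0.55, 0.58 and 0.0146), Casp9 (0.36, 0.39 and 0.39), Bcl2l11 (0.30 and 0.33), Birc2 (0.27 and 0.30), Mcl1 (0.30 and 0.33) and, with the median of probes alone, Casp14 (0.0189). The cause was not tested. Same-numbered plates deviated with correlations of −0.105 to 0.319 over 12 pairs, and plates of other numbers with −0.49 to 0.36. With 4 plates per line, this cannot show whether same-numbered plates share more than a number. The replicate block gave 26, 36 and 29 genes, as without it. For all features it gave 10108, 18427 and 19127, compared with 10270, 18495 and 19192 without it.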
